A study of Mus musculus with 15 samples.

Results

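The comparison described here is that of mouse hippocampus after loss of the mineralocorticoid receptor (MR) with hippocampus that keeps it, where the glucocorticoid receptor (GR) is present in both. It was taken from the sample labels as the 4 MREmx1-cre arrays against the 4 dflox arrays, 8 of the 15 arrays of the series, and covers 22864 genes. Total RNA of both hippocampi of C57BL/6 males aged about 2.5 months was labelled with Cy3 and hybridised to single-colour Agilent expression arrays. The dflox controls carry floxed alleles of Nr3c1, the gene of GR, and of Nr3c2, the gene of MR, and no Cre. By the design as read here, MREmx1-cre mice carry floxed Nr3c2 and Emx1-Cre but no floxed Nr3c1, so the groups differ in the Nr3c1 allele as well as in Cre. The other groups were GREmx1-cre (4 arrays), which lacks GR, and GRMREmx1-cre (3 arrays), which lacks both receptors. They served the test of a difference, and their arrays also entered the choice of probes and the estimate of spread behind every p-value. The labels number the arrays of a group without naming separate mice, so p-values measure the spread between these arrays, which may be technical.

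MR and GR are nuclear receptors that bind the same hormone, corticosterone in mice, and the same DNA element. MR binds it with higher affinity, is dense in the hippocampus and is occupied at resting hormone levels, while GR fills when the hormone peaks. In mice, MR in CA2 pyramidal cells is known for maintaining the molecular identity of that field. Emx1 marks the progenitors of the dorsal forebrain, so that Emx1-Cre acts before birth in the lineage of hippocampal excitatory neurons and of many glia, and not in that of interneurons or microglia.

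The 75th percentile of intensity, against which each array was scaled, ranged from 841 to 1027 over the 8 arrays, with 29823 to 32058 of 43379 spots well above background. Correlations between arrays ran from 0.990 to 0.992 within dflox and from 0.988 to 0.991 within MREmx1-cre. Between the groups they ran from 0.985 to 0.991, nearly as high. Of the markers of the dentate gyrus, CA1, CA2 and CA3 on the array, 15 of 16, 9 of 9, 14 of 15 and 8 of 8 were measurable. So were 14 of 14 of the choroid plexus and 11 of 11 of striatum and neocortex, so these counts do not identify the tissue. MREmx1-cre replicate 2 stood apart in its choroid plexus markers, with a mean of -3.86 relative to all arrays while the other 3 of its group had means from 0.0933 to 1.01. No slide held 2 genotypes, and an effect of the slide cannot be told apart from that of the genotype anywhere below. Levels are log2 intensities relative to the array's 75th percentile, differences are log2 fold changes of MREmx1-cre minus dflox with their standard error, and a gene rose or fell where limma's adjusted p was below 0.05.

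Nr3c1 was higher in hippocampus without MR. Its level was 1.495, 1.79, 1.77 and 1.49 on the dflox arrays and 2.28, 2.16, 2.08 and 2.17 on the MREmx1-cre arrays. The groups did not overlap, and the rise of 0.54 ± 0.0776 (limma adjusted p = 0.00165) was matched in sign by the other Nr3c1 probes, at 0.58, 0.66 (not past the threshold) and 0.44. Since dflox carries a floxed Nr3c1 allele and MREmx1-cre does not, loss of MR and the difference in allele cannot be told apart here. Nr3c2 itself did not separate the groups with the probe of highest signal. Its level was -3.45, -3.36, -3.65 and -3.57 in dflox and -3.76, -3.68, -3.59 and -3.46 in MREmx1-cre, 2 ranges that overlap (-0.11 ± 0.0859, limma adjusted p = 0.48). Its other probes stood at -0.38 and -0.77, neither past the threshold, and the files do not say which of the probes lie in the deleted part. A probe outside it checks nothing, so these values do not test the loss of MR. Emx1 stood at -0.35 ± 0.14 (adjusted p = 0.155). Of 17 receptor, chaperone and hormone metabolism genes, Nr3c1 alone rose and 0 fell (5.88% called, 2 risers without dflox replicate 2).

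Loss of MR went with many small differences and a short list of large ones. Of 22864 genes, 1557 (6.81%) changed, of which 962 (4.21%) rose and 595 (2.6%) fell, with a median size of 0.41 among them. A change of 1.5-fold or more was seen in 226 risers and 203 fallers (429 genes, 1.88%), and one of 2-fold or more in 59 and 76. On 1443 of the called genes the groups did not overlap, against 3169 (13.9%) of all genes tested, called or not. The balance of rises depended on scaling, at 61.8% with the 75th percentile, 50.9% with each array scaled to its median and 41.9% with normexp background correction. The number called was 1013 without dflox replicate 1 or without MREmx1-cre replicate 4, 695 in a fit of the 8 arrays alone, and 105 with normexp (810 with normexp on the 8 arrays alone).

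Of 24 tested genes that corticosteroids induce, 7 fell without MR, 0 rose and 17 were not called (29.2% called). Of all genes 6.81% were called, and of those with a symbol, as list members have, 7.58%. The median of the list was -0.32 against 0.04 over all genes. All lists here were chosen with earlier results of these data known, so their shares are descriptive. Fkbp5, a co-chaperone that lowers the hormone affinity of both receptors, had levels of -1.18, -1.58, -2.10 and -0.88 in dflox and of -3.16, -2.77, -2.89 and -2.87 in MREmx1-cre. All 4 MREmx1-cre arrays lay below all 4 dflox arrays, and the mean fell to 35.7% of dflox (-1.48 ± 0.21, limma adjusted p = 0.00144). Rasd1, a Ras-like GTPase named for its induction by dexamethasone, stood at 1.12, 0.95, 0.58 and 0.93 in dflox and at -1.03, -0.88, -0.24 and -0.58 in MREmx1-cre. Its mean fell to 33.5% of the control value (-1.58 ± 0.204, adjusted p = 0.000867), again without overlap. Errfi1, a feedback inhibitor of the EGF receptor, had the smallest standard error of the 7 (2.13, 2.27, 2.05 and 2.32 in dflox, 1.38, 1.57, 1.42 and 1.49 in MREmx1-cre) and fell by 0.73 ± 0.0759 (adjusted p = 0.000251).

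The transcription factor Cebpd fell by 0.91 (adjusted p = 0.0093). Tsc22d3 encodes a leucine zipper protein induced by glucocorticoids and fell by 0.49 (adjusted p = 0.0096). Sgk1, a kinase that both receptors induce, had levels of 3.98, 3.88, 4.10 and 3.31 in dflox and of 2.79, 3.03, 3.49 and 3.11 in MREmx1-cre. These ranges overlap, because dflox replicate 4 lay below MREmx1-cre replicate 3 (-0.71 ± 0.179, adjusted p = 0.0322). Leaving out dflox replicate 1, 2 or 3, or replicate 1, 2 or 4 of MREmx1-cre, ended the call of Sgk1 (-0.88 to -0.61 over the arrays left out). Ddit4, an inhibitor of the kinase complex mTORC1, fell by 0.51 (adjusted p = 0.0306), a call that ended without replicate 2 or 3 of dflox, or replicate 1 or 4 of MREmx1-cre (-0.59 to -0.39). Leaving out single arrays gave between 5 and 9 fallers in the list, the fit of the 8 arrays alone gave 4, without Cebpd, Sgk1 and Ddit4, and normexp gave 2. Among 12 genes of aldosterone-regulated transport in the kidney, 1 rose and 1 fell (16.7%; 2 fell without GREmx1-cre replicate 4 or MREmx1-cre replicate 2 or 3). The ubiquitin ligase Nedd4l, which acts on the epithelial sodium channel, fell by 0.40 (adjusted p = 0.017). The tissue kallikrein Klk1 was above background on 4 MREmx1-cre and 0 dflox arrays, with means of -5.90 and -7.59, and was at least 1.32-fold higher (adjusted p = 0.0107). Such a bound sets the mean of the brighter group against the lowest signal of probes well above background on each dim array, or against the probe's own signal where that is higher.

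The RefSeq promoters of 5 of the 7 fallers are shown because these genes moved together and both receptors bind the element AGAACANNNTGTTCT. Each runs from 250 bases before to 50 after the gene's start on assembly GRCm38.p6, printed 5′ to 3′ on the gene's strand, with the hexamer TGTTCT, searched on both strands, in capitals. They lie at chr10:21881934-21882233 (plus strand) for Sgk1, chr17:28486100-28486399 (minus strand) for Fkbp5, chr4:150853546-150853845 (plus strand) for Errfi1, chrX:140542619-140542918 (minus strand) for Tsc22d3 and chr10:59951721-59952020 (minus strand) for Ddit4.
Sgk1: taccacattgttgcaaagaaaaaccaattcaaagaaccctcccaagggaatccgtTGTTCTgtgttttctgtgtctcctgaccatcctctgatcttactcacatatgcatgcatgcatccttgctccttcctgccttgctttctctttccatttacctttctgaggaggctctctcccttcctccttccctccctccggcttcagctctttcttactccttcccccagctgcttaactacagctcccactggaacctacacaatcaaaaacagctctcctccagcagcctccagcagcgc
Fkbp5: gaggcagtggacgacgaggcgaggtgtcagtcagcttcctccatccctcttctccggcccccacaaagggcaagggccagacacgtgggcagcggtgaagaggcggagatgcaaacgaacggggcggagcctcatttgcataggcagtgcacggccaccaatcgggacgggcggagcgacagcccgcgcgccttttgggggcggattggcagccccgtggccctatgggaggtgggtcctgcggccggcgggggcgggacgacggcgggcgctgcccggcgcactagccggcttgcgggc
Errfi1: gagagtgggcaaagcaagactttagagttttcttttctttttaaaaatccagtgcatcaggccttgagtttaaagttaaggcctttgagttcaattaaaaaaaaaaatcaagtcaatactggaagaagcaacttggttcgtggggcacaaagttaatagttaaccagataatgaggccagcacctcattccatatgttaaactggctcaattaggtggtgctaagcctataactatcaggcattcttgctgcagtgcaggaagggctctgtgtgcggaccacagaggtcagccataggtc
Tsc22d3: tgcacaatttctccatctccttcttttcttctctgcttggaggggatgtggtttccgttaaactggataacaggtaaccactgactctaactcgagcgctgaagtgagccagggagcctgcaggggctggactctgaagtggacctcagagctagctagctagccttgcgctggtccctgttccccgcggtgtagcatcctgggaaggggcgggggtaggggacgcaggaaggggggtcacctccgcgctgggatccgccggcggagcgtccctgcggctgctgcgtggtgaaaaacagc
Ddit4: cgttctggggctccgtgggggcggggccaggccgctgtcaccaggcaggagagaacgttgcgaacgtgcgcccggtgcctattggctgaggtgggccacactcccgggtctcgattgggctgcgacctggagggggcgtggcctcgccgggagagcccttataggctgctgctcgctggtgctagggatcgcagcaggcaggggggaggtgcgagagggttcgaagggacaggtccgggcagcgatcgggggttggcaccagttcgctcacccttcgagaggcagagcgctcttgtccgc
The hexamer was found in 1 of the 5, that of Sgk1, at -195 from the start. It was in 13.4% of the 12667 promoters of tested genes with an entry, in 11% of the 381 of genes that fell and in 15.7% of the 540 of genes that rose. The full element was in 0 of the 12667, and in 0 of the 5. These counts describe the letters of this window only.

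**Figure D1:**
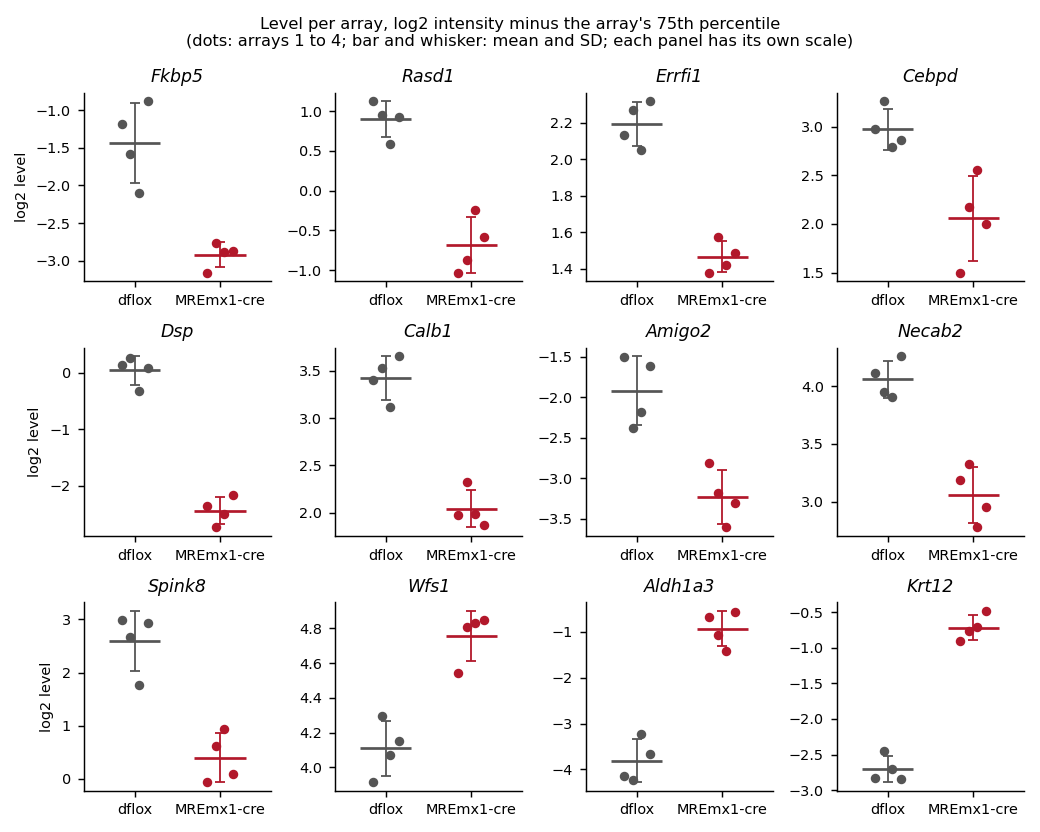
Log2 level (intensity relative to the array's 75th percentile) of 12 genes on the 4 dflox (grey) and 4 MREmx1-cre (red) arrays, each panel with its own scale, with dots for arrays and a bar and whisker for the mean and SD. In each of the 12 panels the arrays of the groups do not overlap: Fkbp5, Rasd1, Errfi1, Cebpd, Dsp, Calb1, Amigo2, Necab2 and Spink8 were lower in MREmx1-cre, and Wfs1, Aldh1a3 and Krt12 were higher.

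Some markers of the dentate gyrus, CA1, CA2 and CA3 fell, and some of the dentate gyrus and CA1 rose. In whole tissue, fewer cells of a type and less RNA per cell cannot be told apart. Of 15 dentate granule cell markers, 6 fell and 2 rose (53.3% called, against 6.81% of all genes), with a median of -0.37. The fallers were 4 to 6 with each array left out, 4 in the fit of the 8 arrays alone and 3 with normexp, where 0 rose. Dsp encodes desmoplakin, which links desmosomes to intermediate filaments. Its level was 0.14, 0.26, -0.32 and 0.09 in dflox and -2.35, -2.73, -2.50 and -2.16 in MREmx1-cre. This gap of well over 1 log2 unit between the nearest arrays gave the smallest adjusted p of the named genes, with a mean at 18% of dflox (-2.48 ± 0.133, limma adjusted p = 3.14e-06). Calb1, the calcium buffer calbindin, had levels of 3.40, 3.53, 3.12 and 3.66 in dflox and of 1.98, 2.32, 1.98 and 1.87 in MREmx1-cre, without overlap, and fell to 38.2% (-1.39 ± 0.109, adjusted p = 3.94e-05). Ahcyl2 (-0.66 ± 0.108, adjusted p = 0.00328) and the matrix protein gene Npnt (-1.10 ± 0.197, adjusted p = 0.00568) fell as well. The call of Npnt was lost with normexp (-0.39), also on the 8 arrays alone. The opioid precursor Pdyn went the other way, from 2.03, 2.55, 2.25 and 2.18 in dflox to 3.02, 2.88, 2.93 and 3.30 in MREmx1-cre (0.78 ± 0.149, adjusted p = 0.0085). So did Rasl10a, a Ras-like GTPase gene (0.57 ± 0.0937, adjusted p = 0.00336). Prox1, the transcription factor that maintains granule cell identity, stood at 0.14 ± 0.143 (adjusted p = 0.617).

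Of 14 CA2 markers, 8 fell and 0 rose (57.1%), with a median of -0.43, and between 6 and 8 fell with each array left out. The fallers were 5 in the fit of the 8 arrays alone, 1 with normexp and 7 with normexp on the 8 arrays. Amigo2, an adhesion protein gene used to mark CA2, had levels of -1.495, -2.37, -2.18 and -1.61 in dflox and of -2.80, -3.19, -3.61 and -3.31 in MREmx1-cre. The groups did not overlap, and the mean was 40.3% of dflox (-1.31 ± 0.191, limma adjusted p = 0.00175). The neuronal calcium-binding protein gene Necab2 went from 4.11, 3.95, 3.91 and 4.26 to 3.19, 3.32, 2.78 and 2.95, a difference of -0.997 ± 0.142 (adjusted p = 0.00146). The matrix protein gene Vit fell by 0.80 ± 0.122 (adjusted p = 0.00213) and the auxiliary AMPA receptor subunit gene Cacng5 by 1.28 ± 0.274 (adjusted p = 0.0153). Smaller falls were those of Gpr12 (-0.36, adjusted p = 0.00627), an orphan receptor, and of Pcp4 (-0.35, adjusted p = 0.0118), a calmodulin regulator. Rgs14, a CA2 regulator of G protein signalling, stood at -0.02 ± 0.084 (adjusted p = 0.924), with 3.15, 3.47, 3.13 and 3.07 in dflox and 3.07, 3.30, 3.16 and 3.22 in MREmx1-cre. The CA2 list was thus not lowered throughout.

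Of 8 CA3 markers, 2 fell (25.0%), the postsynaptic scaffold gene Homer3 (-0.91 ± 0.117, limma adjusted p = 0.000867) and the kainate receptor subunit gene Grik4 (-0.41 ± 0.0692, adjusted p = 0.00425), and the median was -0.31. The CA1 list had 1 faller and 1 riser of 9 (22.2%) and a median of -0.01. Spink8, a protease inhibitor gene, had levels of 2.997, 2.67, 1.76 and 2.93 in dflox and of -0.06, 0.61, 0.94 and 0.10 in MREmx1-cre. It fell to 21.9% (-2.19 ± 0.259, adjusted p = 0.00052), with dflox replicate 3 the nearest to the knockout arrays. Wfs1, the gene of the endoplasmic reticulum protein wolframin, rose from 3.92, 4.30, 4.07 and 4.15 to 4.54, 4.81, 4.83 and 4.85 (0.65 ± 0.0993, adjusted p = 0.00234). Of 15 genes of immature granule neurons and progenitors, 3 rose and 0 fell (20%). Among the risers were the Notch target Hes5 (0.92 ± 0.175, adjusted p = 0.00833) and the transcription factor gene Sox11 (0.54 ± 0.0941, adjusted p = 0.00502). The list as a whole was not raised, with a median of -0.009 and 7 members positive against 8 negative. With normexp 0 of it rose, and 3 with normexp on the 8 arrays alone.

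**Figure D2:**
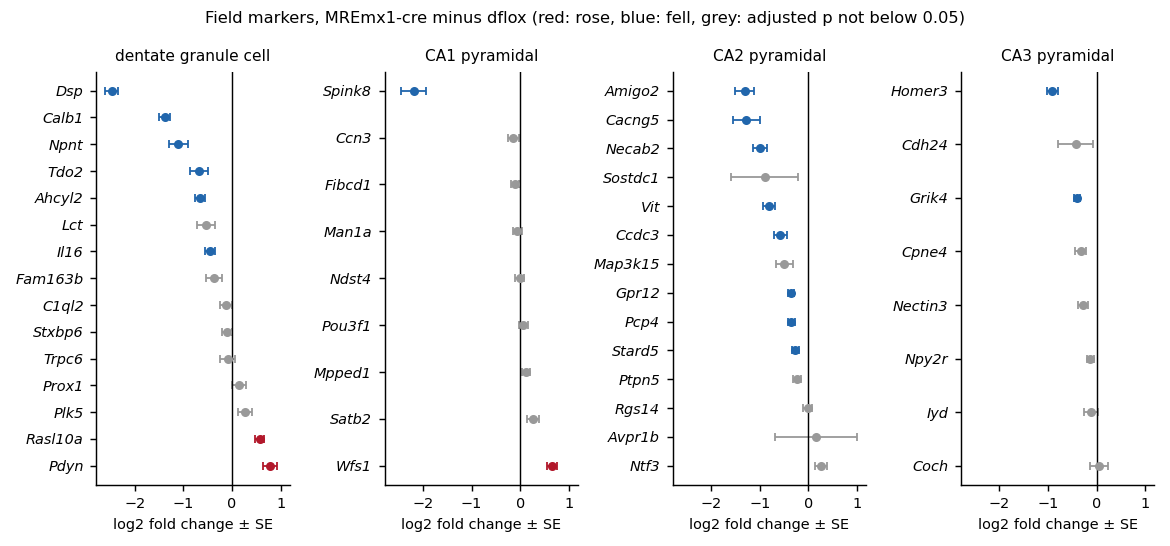
Log2 fold change of MREmx1-cre minus dflox (x axis, with SE as whiskers) for each tested marker of dentate granule cells and of CA1, CA2 and CA3 pyramidal cells, in red where a gene rose, blue where it fell and grey where limma's adjusted p was not below 0.05. Fallers make up 6 of 15 dentate, 8 of 14 CA2 and 2 of 8 CA3 markers, while CA1 has 1 faller, Spink8, and 1 riser, Wfs1.

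The largest falls outside these lists reached 16.2% of the dflox level in Gm34996 (-2.63 ± 0.205, limma adjusted p = 3.94e-05). Grem1, a secreted antagonist of bone morphogenetic proteins (BMPs), had levels of -2.68, -2.81, -4.32 and -2.66 in dflox and of -5.71, -6.02, -5.85 and -5.25 in MREmx1-cre. Its dflox replicate 3 stood 1.5 log2 units under the other controls and still above the knockout arrays (-2.59 ± 0.321, adjusted p = 0.000679). The olfactomedin family gene Olfml2b fell to 19.4% (-2.37 ± 0.203, adjusted p = 5.86e-05) and the membrane protease gene Tmprss6 to 21.2% (-2.24 ± 0.314, adjusted p = 0.00134). Tmem215 was above background on 4 dflox and 0 MREmx1-cre arrays, with means of -5.48 and -8.09, and was at least 1.99-fold lower (adjusted p = 0.000251). With normexp its difference was -0.31 and was not called, also on the 8 arrays alone. Falls to between 28.4 and 33.7% of dflox were those of Fam160a1, Strip2, Mcpt4, Fyb2, A330070K13Rik, Smoc2 and Has3 (-1.82 to -1.57). Mcpt4 encodes a mast cell protease, Smoc2 a matrix protein and Has3 a hyaluronan synthase. On the MREmx1-cre arrays, Mcpt4 was well above background on 2 of 4 and Has3 on 3 of 4.

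Among rises, Aldh1a3 was the largest of the named genes well above background in both groups. This enzyme makes retinoic acid from retinaldehyde. Its level was -4.13, -4.23, -3.22 and -3.66 in dflox and -0.69, -1.06, -1.42 and -0.56 in MREmx1-cre, a 7.36-fold rise without overlap (2.88 ± 0.231, limma adjusted p = 3.94e-05). The retinoid X receptor gene Rxrg rose too, from 0.71, 0.18, 1.21 and 0.95 to 1.89, 2.24, 2.03 and 1.71 (1.21 ± 0.201, adjusted p = 0.00372). These were the 2 risers of 17 retinoic acid pathway genes (11.8%), with 0 fallers. The epithelial keratin genes Krt12 (-2.83, -2.45, -2.71 and -2.84 against -0.90, -0.77, -0.71 and -0.48) and Krt10 (1.87 ± 0.15, adjusted p = 3.94e-05) rose 3.98-fold and 3.66-fold. The small heat shock protein gene Hspb3 rose 3.12-fold (adjusted p = 5.08e-05) and the transcription cofactor gene Dach1 2.77-fold (adjusted p = 3.94e-05), both without overlap between the groups. Dach1 was not called with the mean of its probes (1.45). Stpg1 (1.43), the aldolase gene Dera (1.40), the hexokinase family gene Hkdc1 (1.22) and the ligand gene Bmp3 (1.30) rose as well. The cytochrome P450 gene Cyp2c23 was above background on 4 MREmx1-cre and 0 dflox arrays, with means of -5.58 and -7.56, and was at least 1.64-fold higher (adjusted p = 0.00316). With normexp its difference was 0.35 and was not called. The rise of 4930463O16Rik (1.09, adjusted p = 0.0385) was the least firm of these, well above background on 2 of 4 dflox arrays. It was lost without dflox replicate 2 or 3, any 1 MREmx1-cre array, GREmx1-cre replicate 3 or GRMREmx1-cre replicate 3 (0.83 to 1.24).

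Among secreted signals and their inhibitors, changes went in both directions. In the BMP and TGF-beta family, 7 of 46 fell and 3 rose (21.7%), and 4 of the fallers were inhibitors. Besides Grem1 these were Bambi, a decoy receptor (-0.77 ± 0.109, limma adjusted p = 0.00145), Nbl1, a secreted BMP antagonist (-0.45 ± 0.0793, adjusted p = 0.005), and Lefty1, an antagonist of Nodal (-1.05 ± 0.207, adjusted p = 0.00984). The levels of Bambi were 0.17, 0.72, 0.42 and 0.21 in dflox and -0.45, -0.40, -0.38 and -0.32 in MREmx1-cre. In the Wnt pathway, 6 of 53 rose and 2 fell (15.1%). The secreted Wnt enhancers Rspo2 (0.87 ± 0.114, adjusted p = 0.000899) and Rspo1 (0.92 ± 0.161, adjusted p = 0.00522) rose, as did the Wnt antagonist Dkk2 (1.26 ± 0.266, adjusted p = 0.0138). Its relative Dkkl1, which is not in the list, rose by 1.26 ± 0.139 (adjusted p = 0.000405). The fallers were Nkd2, an intracellular inhibitor of the pathway (-1.42 ± 0.267, adjusted p = 0.00781), and the ligand gene Wnt9a (-0.99, adjusted p = 0.00285, with another probe at 0.01). Of 52 growth factor and receptor genes, 4 rose and 1 fell (9.62%; 2 fell without dflox replicate 4).

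Genes of excitability and synapses moved in both directions. Of 83 potassium and HCN channel genes, 8 rose and 3 fell (13.3%), with 4 risers without dflox replicate 1 and 5 without dflox replicate 4. Kcng2, a modulatory subunit, had levels of 1.45, 1.35, 0.91 and 1.52 in dflox and of 0.10, -0.14, -0.15 and 0.03 in MREmx1-cre (-1.35 ± 0.112, limma adjusted p = 5.08e-05). Its fall contrasts with the rise of Kcnf1, another modulatory subunit (0.73 ± 0.094, adjusted p = 0.000874), and of the Kv1 family gene Kcna6 (0.35 ± 0.0519, adjusted p = 0.00184). Of 33 calcium and sodium channel genes, 3 rose and 4 fell (21.2%; 2 fell without replicate 1 or 4 of dflox, or replicate 3 of MREmx1-cre). The sodium channel beta subunit gene Scn3b fell by 0.54 ± 0.0845 (adjusted p = 0.00248) and the AMPA receptor auxiliary gene Cacng3 rose by 0.54 ± 0.0761 (adjusted p = 0.00144). Of 31 glutamate receptor genes, 4 rose and 3 fell (22.6%; 2 rose without dflox replicate 1 or MREmx1-cre replicate 2 or 4, and 1 fell without dflox replicate 2 or 4, or replicate 4 of MREmx1-cre). The NMDA receptor subunit gene Grin3a was the clearest, from 0.96, 0.82, 1.42 and 1.05 to 2.14, 2.02, 1.85 and 1.85 (0.90 ± 0.118, adjusted p = 0.000902). Of 15 GABA-A receptor genes, 2 rose and 1 fell (20%). Gabra3 was among the risers (0.39, adjusted p = 0.0231). The risers were 0 without dflox replicate 1 or MREmx1-cre replicate 2, 1 without dflox replicate 3 or MREmx1-cre replicate 1 or 4, and 0 with median scaling, and 2 fell without MREmx1-cre replicate 1. Gabra5, a GABA-A receptor subunit concentrated in the hippocampus, fell from 1.95, 2.08, 1.86 and 1.96 to 1.55, 1.44, 1.13 and 1.37 (-0.59 ± 0.0816, adjusted p = 0.00119). The serotonin receptor gene Htr4 was above background on 2 of 4 dflox and 0 MREmx1-cre arrays with means of -6.08 and -7.34 (adjusted p = 0.0095, at least 1.31-fold lower). With normexp its difference was -0.06 and was not called.

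Of 39 neuropeptide and receptor genes, 3 rose and 3 fell (15.4%; 1 rose without dflox replicate 2 or MREmx1-cre replicate 2, and 5 fell without GREmx1-cre replicate 2). The neuropeptide gene Nmb (-0.51, limma adjusted p = 0.00365) and the granule protein gene Chgb (-0.36, adjusted p = 0.00627) fell, and the somatostatin receptor gene Sstr1 rose (0.70, adjusted p = 0.00322). Among 20 interneuron markers, 1 rose, the peptide gene Cort (5.0%; 2 without GRMREmx1-cre replicate 1), and 0 fell (2 without dflox replicate 3). Its levels were -1.07, -1.51, -1.55 and -0.84 in dflox and -0.33, -0.03, -0.16 and -0.10 in MREmx1-cre (1.09 ± 0.189, adjusted p = 0.00496). Of 32 synaptic vesicle and scaffold genes, 2 rose and 6 fell (25.0%). Between 1 and 3 fell without dflox replicate 1, 2 or 4, GREmx1-cre replicate 3, MREmx1-cre replicate 2, 3 or 4, or any 1 GRMREmx1-cre array, and 1 rose without dflox replicate 1, 3 or 4, or replicate 2, 3 or 4 of MREmx1-cre. Stx1a, a core part of the release machinery, rose by 0.45 ± 0.0684 (adjusted p = 0.00224).

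Of 70 axon guidance genes, 9 rose and 7 fell (22.9%). The risers were 4 without dflox replicate 1 or MREmx1-cre replicate 4, and 5 without dflox replicate 4 or MREmx1-cre replicate 2. The netrin receptor gene Dcc rose from -0.58, -0.42, -0.37 and -0.54 to 0.15, -0.03, 0.00 and 0.16 (0.55 ± 0.0655, limma adjusted p = 0.000525). The repellent gene Slit1 fell by 0.58 ± 0.0832 (adjusted p = 0.00146), and Sema5a fell by 0.64 ± 0.0819 (adjusted p = 0.000865), though another of its probes stood at 0.03. Among adhesion genes, Cdh12 (-0.83, adjusted p = 0.00316) and Pcdh20 (-0.55, adjusted p = 0.00322) were the 2 fallers of 61 cadherins and protocadherins (8.2% called). The list had 3 risers, which became 1 without dflox replicate 1, without dflox replicate 4 and without MREmx1-cre replicate 1. There were 5 without GREmx1-cre replicate 2 and 6 without MREmx1-cre replicate 3. Of 35 keratin and desmosomal genes, 5 rose and 3 fell (22.9%). Beside the rises of Krt12 and Krt10, Krt5 fell from -2.46, -2.89, -3.02 and -2.28 to -4.20, -4.12, -4.29 and -3.76 (-1.43 ± 0.162, adjusted p = 0.000447). The desmosomal plakophilin gene Pkp2 fell with Dsp (-1.19 ± 0.184, adjusted p = 0.00249).

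**Figure D3:**
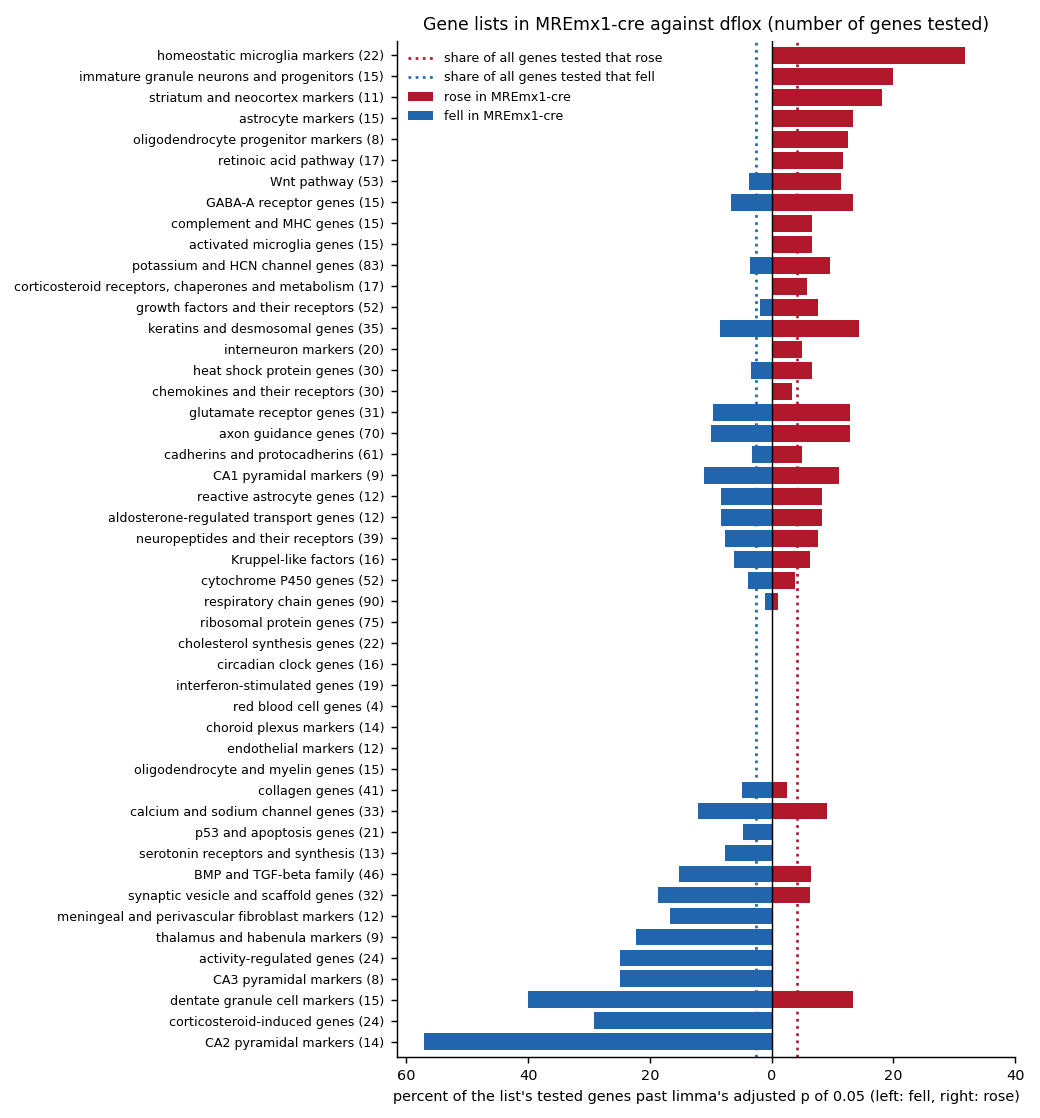
Percent of the tested genes of each of 48 lists that fell (blue, left) or rose (red, right) in MREmx1-cre, with the number tested in brackets; dotted lines give the share of all genes that fell, 2.6%, and rose, 4.21%. The CA2 list has the largest share of fallers, 8 of 14, and 7 of 22 homeostatic microglia markers rose. Some other settings lower both counts.

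Of 22 markers of homeostatic microglia, 7 rose and 0 fell (31.8%, against 6.81% of all genes), by small amounts, with a median of 0.20. The risers were 4 with median scaling, 2 in the fit of the 8 arrays alone and 0 with normexp. The count was 3 without replicate 1 or 4 of dflox, and without replicate 2 or 3 of MREmx1-cre. The receptor genes Fcrls (0.47, 0.56, 0.61 and 0.25 against 1.09, 1.09, 1.18 and 0.88) and Gpr34 (-1.11, -0.96, -0.98 and -0.95 against -0.63, -0.66, -0.76 and -0.66) showed no overlap between the groups. They rose by 0.59 ± 0.0941 and 0.32 ± 0.0551 (limma adjusted p = 0.00297 and 0.00427). The complement gene C4b rose by 0.55 ± 0.0985 (adjusted p = 0.0057) as the 1 riser of 15 complement and MHC genes. That share, 6.67%, is near the 6.81% of all genes. Among 12 reactive astrocyte genes (16.7% called), the cytokine receptor gene Osmr rose (0.52, adjusted p = 0.00851) and the protease inhibitor gene Serpina3n fell (-0.81, adjusted p = 0.00988). In this list 2 rose without GREmx1-cre replicate 2 and 2 fell without dflox replicate 2. Of the 15 oligodendrocyte, 12 endothelial and 14 choroid plexus markers, 0 were called by limma (2, 2 and 0 at an unadjusted p below 0.05; 1 oligodendrocyte gene rose without GREmx1-cre replicate 2 or 3). The choroid median of -1.10 came with the low values of MREmx1-cre replicate 2 given above and was 0.02 without that array. Ogn, the fibroblast gene of osteoglycin, fell from 0.61, -0.17, 0.20 and 0.47 to -0.56, -0.70, -0.68 and -0.94 (-0.9997 ± 0.168, adjusted p = 0.00384). It was 1 of 2 fallers of 12 fibroblast markers (16.7% called, with 1 faller without replicate 1, 3 or 4 of dflox, or replicate 4 of MREmx1-cre).

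Of 24 activity-regulated genes, 6 fell, 0 rose and 18 were not called (25.0% called), with a median of -0.33. The fallers were 2 in the fit of the 8 arrays alone and 1 with normexp. Ptgs2, the inducible cyclooxygenase gene, went from -2.08, -2.18, -2.45 and -2.23 to -2.96, -3.01, -3.23 and -3.29 (-0.89 ± 0.117, limma adjusted p = 0.000921). Gadd45b (-0.68 ± 0.11, adjusted p = 0.00321) and the transcription factor gene Egr4 (-0.63 ± 0.137, adjusted p = 0.0167) fell. The count was 3 without replicate 2 or 4 of dflox, or replicate 3 or 4 of MREmx1-cre, and dflox replicate 1 had a list mean of -0.15 relative to all arrays, within the -0.25 to -0.09 of the MREmx1-cre arrays, against 0.28 to 0.46 on the other dflox arrays. Some lists held few or no calls. Of 90 respiratory chain genes 2.22% were called, and of 75 ribosomal protein genes, 22 cholesterol synthesis genes, 19 interferon-stimulated genes and 16 clock genes 0 were called by limma (3, 3, 1 and 6 at an unadjusted p below 0.05, as were 4999 of all 22864 genes; at most 1 in each with any array left out).

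The same loss of MR where GR was absent, as GRMREmx1-cre minus GREmx1-cre, shares no array with this comparison. There 3690 genes (16.1%) were called, 2110 (9.23%) up and 1580 (6.91%) down. Of the 1557 genes called with GR present, 848 were called there in the same direction, which is 54.5% of the one list and 23% of the other, 31 in the opposite direction and 678 not. Among the 135 genes that changed 2-fold or more, 96 were called there in the same direction, and 70 had the larger size there. The difference of Dsp was -2.48 with GR and -2.93 without, that of Calb1 -1.39 and -1.603, and that of Aldh1a3 2.88 and 3.64. CA2 markers had a median of -0.43 with GR and -0.44 without, with 8 fallers of 14 in each. The activity-regulated list had a median of -0.33 with GR and 0.25 without.

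The difference between the 2 effects was tested gene by gene as the interaction, here the effect with GR present minus that with GR absent. It was called for 295 of 22864 genes (1.29%), 178 (0.779%) positive and 117 (0.512%) negative, and for 72 of the 1557 (4.62%). Of the 48 lists, none had more than 2 members called. Rasd1 was the corticosteroid-induced gene among them. Its levels were 0.96, 0.88, 0.75 and 0.96 in GREmx1-cre and -2.40, -2.37 and -1.54 in GRMREmx1-cre, so that it fell by 2.99 without GR and by 1.58 with it (interaction 1.41 ± 0.3, limma adjusted p = 0.0448). This call was lost without any of the dflox or GREmx1-cre arrays, MREmx1-cre replicate 2, 3 or 4, or GRMREmx1-cre replicate 1 or 2 (1.27 to 1.70). Fkbp5, at -1.48 with GR and -2.18 without, was not called (interaction adjusted p = 0.276). Gpr34 rose more without GR (0.83) than with it (0.32), and its interaction of -0.51 ± 0.0811 was called (adjusted p = 0.013). In the activity-regulated list, the transcription factor gene Fosb was called, at -0.71 with GR and 0.46 without (interaction adjusted p = 0.0465). In the BMP list, the BMP antagonist gene Chrdl1 was called, at 0.42 with GR and 1.503 without (interaction adjusted p = 0.0045). The fibrillar collagen gene Col11a1 fell by 0.60 with GR and stood at -0.10 without (interaction adjusted p = 0.0494). Fosb and Chrdl1 were named after their values were seen, as list members with an interaction called.

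The largest positive interactions with a symbol, beside Rasd1, were those of the long non-coding RNA gene Crnde (2.76), D130040H23Rik, Olfr401, Ugt3a2 (1.61) and the transcription factor gene Tfap2b (1.45). Crnde rose with GR present (1.01 ± 0.207, limma adjusted p = 0.0121) and fell without GR (-1.75), where its GREmx1-cre arrays stood between -3.47 and -3.06 and its dflox arrays between -6.31 and -5.27, of which 3 of 4 were well above background. The rise with GR was not called in the fit of the 8 arrays alone, and the interaction was -0.16 under normexp. Crnde and D130040H23Rik lie on chromosome 8, as does Nr3c2, whose floxed allele GREmx1-cre by design lacks, so for them too allele and loss of MR cannot be told apart. The largest negative ones were those of Olfr73, Olfr218, Olfr1044, Olfr1101 (-2.04), Tnfsf12 and the odorant receptor gene Olfr1394 (-1.84). Of these 6, Olfr1101 fell with GR present (-1.24, adjusted p = 0.014, well above background on 4 dflox and 2 MREmx1-cre arrays). The probes of D130040H23Rik, Olfr401, Olfr73, Olfr218, Olfr1044 and Tnfsf12 lacked a signal well above background throughout at least 1 of the 4 groups, so the size of their interaction was not measured. Olfr401 rose with GR present, as at least 1.47-fold (adjusted p = 0.021), above background on 4 MREmx1-cre and 0 dflox arrays, a call lost without MREmx1-cre replicate 4 (0.75). With single arrays left out, the interactions of Crnde, Ugt3a2, Tfap2b, Gpr34 and Rasd2 were kept each time. Those of Nr3c2, Rasd1, D130040H23Rik, the named Olfr genes and Tnfsf12 were lost at least once, and those of Fosb, Chrdl1 and Col11a1 were not run.

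**Figure D4:**
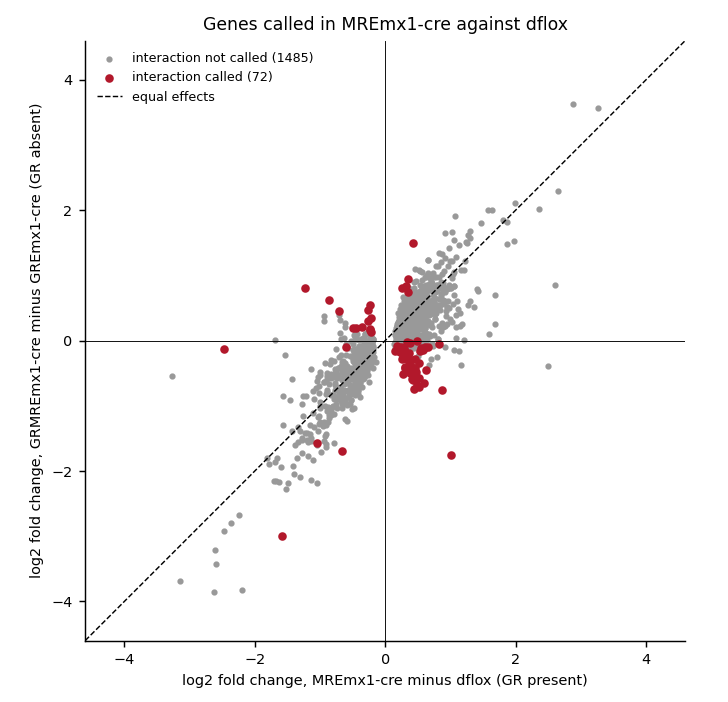
Log2 fold change on loss of MR with GR present (x axis, MREmx1-cre minus dflox) against that with GR absent (y axis, GRMREmx1-cre minus GREmx1-cre) for the 1557 genes called with GR present, in red for the 72 whose interaction was called. The dashed line marks equal effects; the points were selected on the x axis values, and 1347 of the 1557 have the same sign on both axes.

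As the groups differ in engineered alleles, the 100 tested genes on either side of each locus were counted. Beside Nr3c1, whose floxed allele dflox carries and MREmx1-cre by design lacks, 9 of 200 genes were called (4.5%), while 7.62% were called among the remaining genes with a symbol (7.58% of all genes with a symbol), and 0 of the nearest 40. The immune adaptor gene Sting1 (0.42, limma adjusted p = 0.00373) and the protocadherin gene Pcdhb7 (0.41, adjusted p = 0.0095) rose there. The serotonin receptor gene Htr4, given above, fell there. Beside Nr3c2, floxed in both groups, 14 of 200 were called (7%, against 7.59%), among them the matrix protein gene Comp (-1.04, adjusted p = 0.00609). Of the 40 nearest, 2 were called (5%), and these were its neighbours on either side. Rasd2, a Ras-like GTPase gene, rose by 0.30 ± 0.0596 (adjusted p = 0.0104) and Arhgap10, named after its value was seen, by 0.37 (adjusted p = 0.0153). The call of Rasd2 was lost in the fit of the 8 arrays alone. Beside Emx1, 21 of 200 were called (10.5%, against 7.54%), and 5 of the nearest 40 (12.5%). Egr4, given above among the activity-regulated genes, was 1 of these 5. Among the 21, Arhgap25 rose (0.68, adjusted p = 0.00223) and the plexin gene Plxna1 fell (-0.49, adjusted p = 0.00447, with another probe at 0.00).

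The same neighbours were counted in the interaction. Of the 200 genes beside Nr3c2, 19 were called (9.5%) against 1.04% of the others, with 0 of 200 beside Nr3c1 and 1 of 200 beside Emx1. GREmx1-cre mice, by the design as read here, lack the floxed Nr3c2 allele that the other groups carry, so allele and loss of MR cannot be told apart in that test near Nr3c2. In GRMREmx1-cre minus GREmx1-cre, where the same holds, 68 of the 200 were called (34%) against 17.7% of the others. Rasd2 (0.72 ± 0.0877, adjusted p = 0.0042) and Nr3c2 (0.62 ± 0.126, adjusted p = 0.0394) were among the genes called. The call of Nr3c2 was lost without dflox replicate 1, 3 or 4, any 1 GREmx1-cre array, MREmx1-cre replicate 2, 3 or 4, or GRMREmx1-cre replicate 2 or 3 (0.52 to 0.67).

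**Figure D5:**
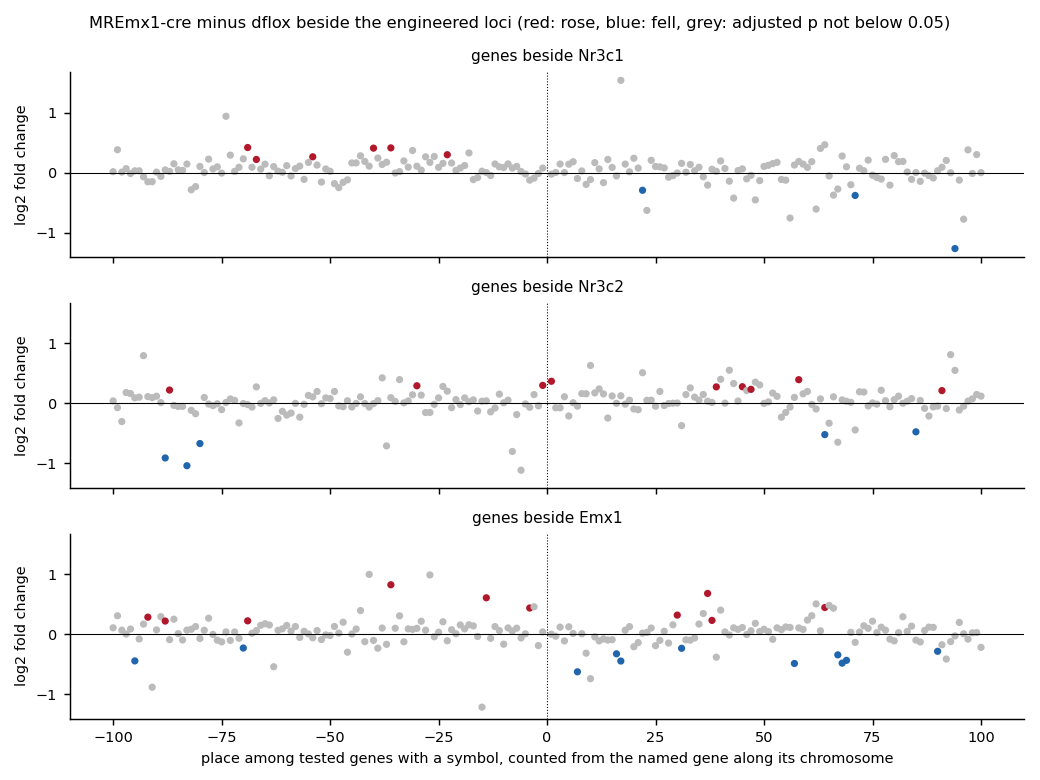
Log2 fold change of MREmx1-cre minus dflox (y axis) for the 100 tested genes on either side of Nr3c1, Nr3c2 and Emx1 (x axis, place counted from that gene along its chromosome), in red where a gene rose, blue where it fell and grey where limma's adjusted p was not below 0.05. The called genes, 9, 14 and 21 of 200, are spread along the window with no run next to Nr3c1, where 0 of the nearest 40 were called.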

How the data were processed

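Per the file headers, the authors deposited single-colour Agilent scanner output, whose processed signal is a background-subtracted intensity, made with Agilent Feature Extraction (version 12.0 per the notes on processing that the submitters gave). The deposited value table equals these intensities at every spot. Spots flagged as outliers were left out (1281 over 15 arrays), spots of a probe were averaged, and log2 intensities were taken relative to each array's 75th percentile. Probes had to be well above background on 3 or more of the arrays, and the probe of highest mean stood for its gene (30873 probes, 22864 genes, of which 15939 have a symbol). A group means model on all 15 arrays (limma 3.58.1 in R 4.3.3) gave the comparisons, with Benjamini-Hochberg adjusted p below 0.05 as the threshold. Python 3.11.15 and matplotlib 3.10.9 made the counts and plots. On simulated data for MREmx1-cre against dflox (22864 genes), 40 of 67 changes of 0.5, 61 of 67 of 1 and 64 of 66 of 2 on the log2 scale were recovered, with 11 false calls. The simulated noise was normal and independent between genes and arrays, with no effect of slide. These counts therefore do not give the rate of false calls on the real arrays.

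The members and lists were chosen with earlier results of these data known. Genes were named by rule. These are Nr3c1, Nr3c2 and Emx1, the 15 largest rises and falls with a symbol, called, without overlap and well above background in the brighter group, up to 3 called members of each list and 4 beside each locus by adjusted p, and the 6 largest called interactions each way. Cebpd, Tsc22d3, Ddit4, Sgk1, Npnt, Pdyn, Rasl10a, Prox1, Gpr12, Pcp4, Cacng5, Rgs14, Lefty1, Nkd2, Pkp2, Ttr, Fosb, Chrdl1 and Arhgap10 fall outside it and were named after their values were seen. Not every gene the rule allows is named. The alternatives were other scalings, normexp (offset 50, on median signals, since mean signals are not in the files used here), no filter, other uses of probes, a replicate block, the 8 arrays alone, the value table, and each array left out. Promoters are RefSeq's.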

Additional observations from a re-analysis of the deposited data

Results flagged for a closer look

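Arrays that stood far from the other 3 of their group, by the size of the gap, were found in 15 of 226 groups of 4 values, and chance gives about 1 in 20. On dflox replicate 1 these were Gadd45b (0.74, the others 1.30 to 1.38) and Gpr34 (-1.11, the others -0.98 to -0.95). On dflox replicate 3 these were Grik4 (3.64, the others 3.87 to 3.92), Grem1 (-4.32, the others -2.81 to -2.66), Fyb2 (-4.78, the others -3.38 to -3.15) and Scn3b (4.68, the others 5.01 to 5.04). On dflox replicate 4 this was Sox11 (0.17, the others -0.04 to -0.01). On MREmx1-cre replicate 1 these were Wfs1 (4.54, the others 4.80 to 4.85), Dera (-2.28, the others -2.99 to -2.91) and Kcna6 (4.53, the others 4.68 to 4.70). On MREmx1-cre replicate 2 these were Nedd4l (-1.57, the others -1.79 to -1.75), Olfr1044 (-7.43, the others -8.52 to -8.38), Ttr (-2.58, the others 3.94 to 4.77) and Kl (-2.44, the others 1.24 to 1.92). On MREmx1-cre replicate 4 this was Klk1 (-5.04, the others -6.29 to -6.08). Ttr and Kl are choroid plexus genes, and their low values go with the low choroid markers of MREmx1-cre replicate 2; their part in other differences was not tested.

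The effect of loss of MR with GR present minus that with GR absent was called in limma for the 15 genes here, beside Fosb, Chrdl1 and Col11a1 above. Positive interactions, each followed by the effect with GR and without it, were those of Nr3c2 (0.62, with -0.11 and -0.73), Rasd1 (1.41, with -1.58 and -2.99), Rasd2 (0.72, with 0.30 and -0.42), Crnde (2.76, with 1.01 and -1.75), D130040H23Rik (2.92, with 0.29 and -2.63), Olfr401 (1.62, with 0.87 and -0.75), Ugt3a2 (1.61, with 0.56 and -1.06) and Tfap2b (1.45, with 0.45 and -0.99). Negative ones were those of Gpr34 (-0.51, with 0.32 and 0.83), Olfr73 (-2.70, with -1.30 and 1.40), Olfr218 (-2.33, with -0.34 and 1.98), Olfr1044 (-2.31, with -0.13 and 2.18), Olfr1101 (-2.04, with -1.24 and 0.80), Tnfsf12 (-1.98, with -0.29 and 1.69) and Olfr1394 (-1.84, with -0.20 and 1.64). The values of D130040H23Rik, Olfr401, Olfr73, Olfr218, Olfr1044 and Tnfsf12 are fitted against at least 1 group not well above background and give no measured size.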

How the results depend on the processing

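The counts of calls were 1557 for MREmx1-cre against dflox, 3690 for loss of MR without GR and 295 for the interaction. With each array scaled to its median, the first was 1029 and the interaction 182. Without a filter on dim probes the interaction count was 138. With normexp the counts were 105, 14076 and 1, and the mean normexp log2 level of the GRMREmx1-cre arrays was 8.56 to 10.6 against 8.18 to 8.35 on the others. In fits of the 8 arrays alone the first count was 695, and 810 with normexp, an alternative chosen after seeing the data. Leaving out single arrays gave 1013 to 1591, 2079 to 3789 and 83 to 434. Under normexp the interactions of Nr3c2 (-0.67), Crnde (-0.16), D130040H23Rik (-1.13), Olfr401 (-1.25), Ugt3a2 (-0.72) and Tfap2b (-0.75) reversed; the cause was not tested. Of 99 called genes, 95 kept their call with every array left out, 68 lost it with normexp, 14 with normexp on the 8 arrays and 20 with the 8 arrays alone (Cebpd, Ddit4, Sgk1, Klk1, Nedd4l, Gpr12, Strip2, Fyb2, 4930463O16Rik, Lefty1, Nkd2, Nmb, Chgb, Egr4, Osmr, Comp, Rasd2, Crnde, Olfr401 and Olfr1101). With normexp the fallers were 2 corticosteroid-induced genes and 1 CA2 marker (5 and 7 on the 8 arrays). With the replicate number as a block the counts were 1833, 3651 and 307. The block ended the calls of the Nr3c2, Rasd1 (1.39) and Olfr73 interactions. Same-numbered deviations correlated at 0.137, 0.196, 0.0733 and 0.108, and dflox replicate 3 correlated best with MREmx1-cre replicate 1 (0.113), so the numbers were not taken as pairs. Values near background have the least precision.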
